A study of Ovis aries with 6 samples.

Results

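The ectodysplasin pathway carries a signal of the tumour necrosis factor type that sets where hair and wool follicles form in the skin. The genes described here are the ligand EDA, its receptors EDAR and EDA2R, the related receptor TNFRSF19, the adaptor EDARADD, the signal transducers TRAF6 and TRAF3, and the forkhead transcription factor FOXI3. They were chosen by their names in the deposited gene tables, and all 8 were present among the 28394 genes listed. Skin behind the shoulder blade was taken from ewes of 2 breeds, the fine wool Super Merino (SM) and the coarse wool Small Tail Han (STH), and its polyadenylated RNA was sequenced as 1 library per sheep. The labels name 3 individual SM sheep (128, 30034, 30126) and 3 individual STH sheep (XW3, XW5, XW8) and give an age of 9 months for each. No treatment is given, and the sheep shared a farm and feed, and were sampled in a season when follicles were expected to be growing, so that the libraries describe postnatal skin with formed follicles and not the fetal skin in which placodes arise.

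In the developing skin, EDA is released from epithelial cells and binds its receptors on neighbouring ones. The longer splice form of EDA binds EDAR, and a form that is shorter by a pair of amino acids binds EDA2R. EDAR recruits the death domain adaptor EDARADD, which together with TRAF6 leads to activation of the transcription factor NF-kB, and loss of EDA, EDAR or EDARADD in mammals causes ectodermal dysplasia with sparse hair, few sweat glands and missing teeth. EDA2R binds TRAF3 and TRAF6 without EDARADD, and TNFRSF19, also called TROY, is a receptor of the same family expressed in hair follicle epithelium. FOXI3 is expressed in placodes and hair germs, acts downstream of EDA in the mouse, and is altered in hairless dog breeds. The deposited counts are per gene and do not separate the splice forms of EDA.

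The libraries held between 28870583 and 44645091 counts, at which a floor of 3 counts is 0.0672 to 0.104 CPM (counts scaled to a library of fixed size), for counting error only. The tissue label was checked on marker genes. All 5 skin epithelium markers (KRT5, KRT14, TP63, CDH1 and PERP) and all 8 markers of the follicle matrix and shaft were counted in every sheep. Between breeds, the summed RPKM of 4 markers of differentiated epidermis (KRT1, KRT10, IVL and DSG1) was 466 to 594 in SM and 718 to 1486 in STH sheep. The 5 sebaceous gland markers found summed to 75.5 to 93.4 in SM and 36.3 to 62.7 in STH sheep, the 8 muscle markers to 356 to 471 and 487 to 676, and the 5 endothelial markers, which overlapped, to 60.6 to 82.1 and 36.9 to 65.3. The 8 follicle matrix and shaft markers overlapped, at 4108 to 5636 and 4931 to 6607, as did the lists for skin epithelium, sweat gland, fibroblasts, immune cells and melanocytes. The follicle list was split within itself. Its 5 transcription factors (FOXN1, DLX3, MSX2, HOXC13 and LEF1) had log2 fold changes of 0.30 to 0.67, SM over STH. Its 3 keratins (KRT25, KRT71 and KRT27), which carry most of the sum, had -0.52 to -0.17. These 3 are keratins of the inner root sheath, and no keratin of the shaft is in the list despite its name. The sweat gland marker AQP5 was at 0 in STH sheep XW3 and XW8, and no marker was at 0 in every library. In bulk skin a smaller number of cells of a type and less RNA per cell cannot be told apart, and the part of these marker differences in the results below was not tested. Results over all genes turned on SM sheep 128, without which 1175 of 15203 genes (7.73%) passed the thresholds given below, against 0 with it. By the mapping statistics of these libraries it had the highest share of intronic fragments of all sheep and SM sheep 30126 the lowest, and the part of this share in the results was not tested.

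Per exon length, as the deposited RPKM (reads scaled to exon length and library size), the 8 genes covered a wide range of levels. TNFRSF19 was highest with a mean of 11.4 RPKM over the 6 sheep, followed by TRAF6 with 7.65. A middle group comprised EDA with 2.01, FOXI3 with 1.80, EDARADD with 1.77 and TRAF3 with 1.57 RPKM. EDAR, the receptor for the longer splice form, had 0.580 and EDA2R 0.249 RPKM. TNFRSF19 lay above TRAF6, TRAF6 above EDA and TRAF3 above EDAR in 6 of 6 sheep, and EDAR above EDA2R in 5 of 6, the exception being STH sheep XW5. The order within the middle group was not shared by the sheep, since EDA exceeded FOXI3 in 4, FOXI3 exceeded EDARADD in 3 and EDARADD exceeded TRAF3 in 2 of the 6. The ligand was thus present at a higher level per length than either of its receptors, and TNFRSF19 was between 13.3 and 35.9 times EDAR in the same library.

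**Figure D1:**
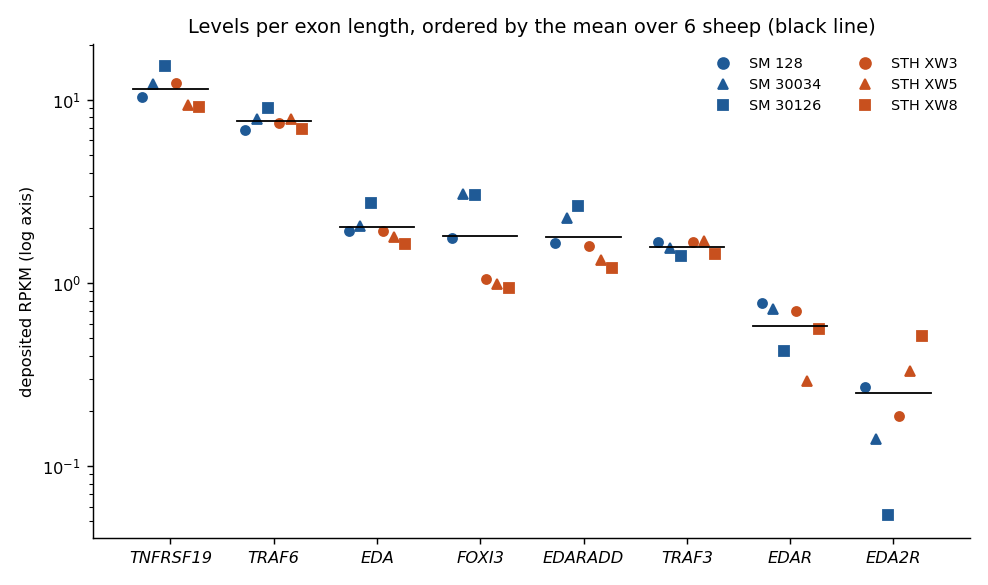
Deposited RPKM of the 8 genes in each of the 6 sheep, on a log axis. Blue symbols are SM and orange symbols STH sheep, the black lines are means over the 6 sheep, and the genes run from TNFRSF19 at 11.4 RPKM to EDA2R at 0.249 RPKM.

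Breeds were compared with edgeR's quasi-likelihood test on the total counts of all 15320 genes that had at least 10 counts in at least 3 sheep, and all 8 genes were among them. To pass, a gene needed an adjusted p under 0.05 and a difference of more than 1.5-fold in either direction. The p values set the breed difference against the spread between individual ewes, and an adjusted p is from this test unless another is named. In that test 0 of the 15320 genes (0%) passed, none of the 8 among them, while 2762 genes (18%) had an unadjusted p under 0.05. DESeq2 passed 439 genes (2.87%) and edgeR's likelihood ratio test 352 (2.3%), FOXI3 being the 1 member in each. Log2 fold changes are given as SM over STH, and values per sheep are CPM after TMM normalization, always in the order 128, 30034, 30126 for SM and XW3, XW5, XW8 for STH.

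FOXI3, the transcription factor, had the largest difference of the 8 between the breeds. It had 8.03, 13.3 and 13.2 CPM in the SM sheep, from 243, 599 and 519 counts. The STH sheep had 4.67, 4.60 and 4.30 CPM, from 144, 194 and 130 counts. The STH sheep were within 1.09-fold of each other, the SM sheep were within 1.65-fold, and the lowest SM sheep lay above the highest STH sheep. The log2 fold change of 1.35, or 2.54-fold, had a 95% confidence interval from 0.79 to 1.91. Its unadjusted p of 0.00044 was the 41st smallest of all genes tested, and its adjusted p of 0.159 in edgeR's quasi-likelihood test did not pass. The gene passed both thresholds in DESeq2 (adjusted p = 0.000232, where 1.02% of genes passed with higher values in SM sheep) and in the likelihood ratio test (adjusted p = 0.000906, where 0.868% did). It did not pass in limma-voom, a further test of the same counts (adjusted p = 0.185), or with other filters and scalings in the quasi-likelihood test. Leaving out SM sheep 128, which had the lowest value of its breed, raised the log2 fold change to 1.55 and gave an adjusted p of 0.0163, so that it passed beside 1.34% of genes with higher values in SM sheep. With each of the other sheep left out the log2 fold change was between 1.22 and 1.37 and did not pass.

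In Oar_v4.0, FOXI3 occupies bases 58843200 to 58851081 of the minus strand of chromosome 3, and EDAR is on the same chromosome and strand from 61871970 to 61923157, 3.02 megabases away. Of the 27 genes tested between them, 4 were higher in all SM than in all STH sheep (12.3% of all genes tested) and 4 were lower (13.3%), with a median log2 fold change of 0.016. EIF2AK3 and THNSL2, the tested genes nearest to FOXI3 on either side, overlapped between breeds with log2 fold changes of -0.26 ± 0.22 (SE) and 0.38 ± 0.36 (SE). EDAR was at percentile 13.0 of the tested genes by its mean log CPM. Its counts were 60, 80 and 41 in the SM and 54, 32 and 44 in the STH sheep. As CPM these were 1.98, 1.77 and 1.05 in SM and 1.75, 0.758 and 1.46 in STH sheep. The breeds overlapped, with SM sheep 30126 below 2 of the STH sheep. The log2 fold change was 0.28 (95% confidence interval -0.75 to 1.31, adjusted p = 0.730), an interval that holds more than 1.5-fold differences in either direction. Without STH sheep XW5, the lowest of the 6, the value was -0.006.

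The ligand EDA lies on the X chromosome from 59132368 to 59491645 on the plus strand. It had 14.2, 14.5 and 19.6 CPM in the SM and 13.9, 13.5 and 12.3 in the STH sheep. Every SM value exceeded every STH value, but SM sheep 128 and STH sheep XW3 were close, and SM sheep 30126 stood above the other SM sheep. The log2 fold change was 0.29 (95% confidence interval -0.13 to 0.71, adjusted p = 0.391), and without SM sheep 30126 it was 0.13. An unnamed gene, LOC105605494, is annotated within EDA on the opposite strand and had a total count of 0 in all libraries. AWAT2, a wax synthase gene of sebaceous glands, ends 0.755 kilobases beyond EDA and is transcribed towards it. AWAT2 had 15.4, 4.47 and 17.7 CPM in the SM and 3.63, 9.00 and 2.18 CPM in the STH sheep. Both genes were highest in SM sheep 30126 and lowest in STH sheep XW8. The lowest SM sheep was 30034 for AWAT2 and 128 for EDA, and whether their values are related was not tested.

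EDA2R, the receptor for the shorter splice form, also lies on the X chromosome, from 55204476 to 55343256 on the minus strand, 3.79 megabases from EDA. It was the only 1 of the 8 that was more than 1.5-fold higher in STH sheep by its estimate. The counts were 40, 30 and 10 in the SM and 28, 70 and 77 in the STH sheep, which gave 1.32, 0.664 and 0.255 CPM in SM and 0.908, 1.66 and 2.55 CPM in STH sheep. The values spread 5.19-fold within SM and 2.81-fold within STH sheep, and SM sheep 128 lay above STH sheep XW3. The log2 fold change was -1.20, or 2.30-fold higher in STH sheep, with a 95% confidence interval from -2.65 to 0.24 and an adjusted p of 0.323 in edgeR's quasi-likelihood test. It ranged from -1.87 without SM sheep 128 to -0.78 without SM sheep 30126. SM sheep 30126 and STH sheep XW8, which had the lowest and highest EDA2R, also had the lowest and highest summed RPKM of the markers of differentiated epidermis, 466 and 1486, and whether these are related was not tested.

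TNFRSF19, which lies on chromosome 10 from 34589405 to 34690170, was the most abundant of the receptors. It had 76.1, 86.1 and 108 CPM in the SM and 89.2, 70.3 and 68.2 CPM in the STH sheep. The breeds overlapped, since STH sheep XW3 lay above 2 of the SM sheep. The log2 fold change was 0.25 (95% confidence interval -0.16 to 0.65, adjusted p = 0.437).

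EDARADD, the adaptor that couples EDAR to its transducers, is on chromosome 25 from 9058767 to 9124931. It had 7.77, 10.2 and 11.9 CPM in the SM and 7.39, 6.40 and 5.76 CPM in the STH sheep. The breeds again did not overlap, with SM sheep 128 and STH sheep XW3 close to each other. The log2 fold change of 0.62 ± 0.23 (SE) had a 95% confidence interval from 0.10 to 1.13, an unadjusted p of 0.025 and an adjusted p of 0.255 by quasi-likelihood, 0.148 in DESeq2 and 0.192 in the likelihood ratio test. It did not pass in any of these. LGALS8, the next gene 6.04 kilobases beyond it on the same strand, overlapped between breeds with a log2 fold change of -0.15.

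The transducers TRAF6 and TRAF3, which also serve many other receptors, had the smallest differences of the 8. TRAF6, on chromosome 15 from 65045135 to 65064223, had 20.7, 22.6 and 26.3 CPM in the SM and 21.9, 24.1 and 21.1 CPM in the STH sheep. TRAF3, on chromosome 18 from 66148184 to 66199507, had 10.1, 8.86 and 8.08 CPM in the SM and 9.86, 10.4 and 8.74 CPM in the STH sheep. The STH values fell within the range of the SM sheep in 3 of 3 sheep for TRAF6 and in 2 of 3 for TRAF3. The log2 fold changes were 0.052 (95% confidence interval -0.30 to 0.41) and -0.099 (-0.53 to 0.33), intervals within a 1.5-fold difference on either side, with adjusted p of 0.862 and 0.774 in edgeR's quasi-likelihood test.

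**Figure D2:**
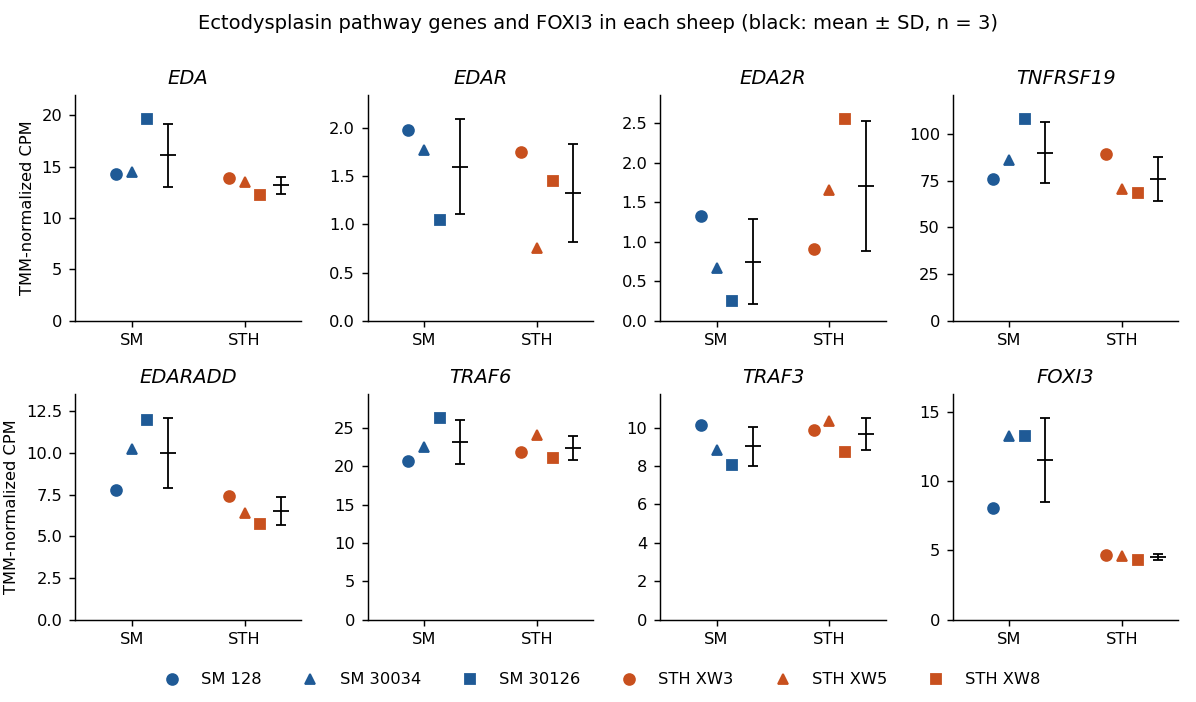
TMM-normalized CPM of the 8 genes in each sheep, with the mean and SD of each breed (n = 3) in black and each axis starting at 0. FOXI3, EDARADD and EDA have all SM sheep above all STH sheep, and the other 5 genes overlap.

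Across the 8 genes, 3 (EDA, EDARADD and FOXI3) had all SM sheep above all STH sheep, against 12.3% of all genes tested, and 0 had the reverse, against 13.3% (3 in either direction, against 25.6%). At an unadjusted p under 0.05, 2 were higher in SM sheep (7.21% of all genes) and 0 in STH sheep (10.8%). The 8 had a median log2 fold change of 0.26, beside 0.018 over all genes tested. These tallies include FOXI3, which the study had already reported as higher in SM sheep from these same libraries. They are a description and not independent support for a difference of the pathway. EDA and EDARADD placed the 6 sheep in the same order, from STH sheep XW8, XW5 and XW3 to SM sheep 128, 30034 and 30126, and FOXI3 differed from this order only in its top pair, 13.3 and 13.2 CPM. Within SM sheep, 128 was lowest for EDA, EDARADD, FOXI3, TNFRSF19 and TRAF6 and highest for EDAR, EDA2R and TRAF3. SM sheep 30126 was lowest for those last 3 genes. Within STH sheep, XW8 was lowest for 6 of the 8, all except EDAR and EDA2R. The receptors for EDA thus had another order of sheep than the ligand and the adaptor.

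**Figure D3:**
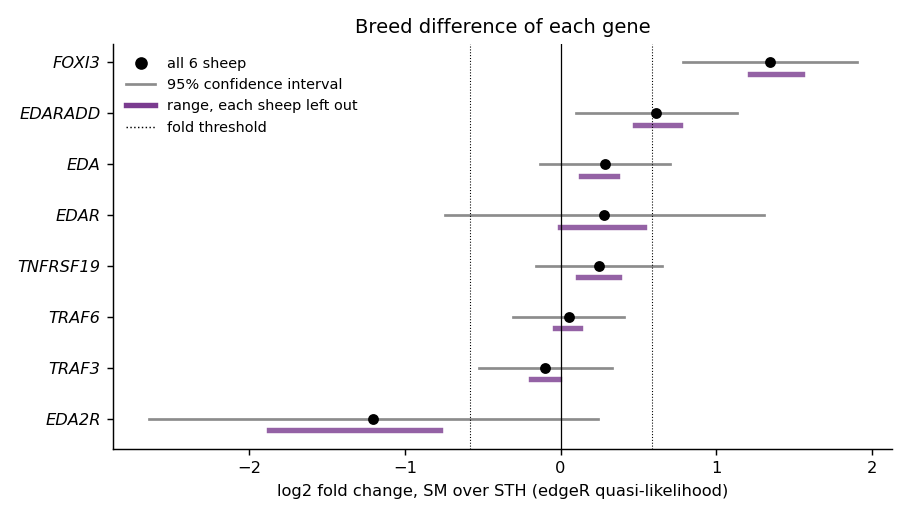
Log2 fold change of SM over STH sheep for each gene (black points, all 6 sheep), its 95% confidence interval (grey) and the range as each sheep was left out (purple), with dotted lines at a 1.5-fold difference. The intervals of FOXI3, from 0.79 to 1.91, and EDARADD, from 0.10 to 1.13, are the ones that do not reach 0.

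Ratios within a library do not depend on how libraries are scaled, and 9 were computed from RPKM as log2 values. Marker lists entered as the mean of their log2 values. FOXI3 relative to the 5 skin epithelium markers was -7.33, -6.81 and -6.80 in the SM and -8.28, -8.52 and -8.69 in the STH sheep. The breeds did not overlap, and the difference was 1.52, beside 1.35 for FOXI3 alone (two-sided exact permutation p = 0.1, which 3 sheep against 3 cannot go below, adjusted p = 0.45 over the 9 ratios). Relative to the 8 markers of follicle matrix and shaft, FOXI3 was -6.51 ± 0.32 in the SM and -7.66 ± 0.15 in the STH sheep (SD, n = 3 each), again without overlap and with a difference of 1.15 (exact permutation p = 0.1, adjusted p = 0.45). The size depended on the markers. In a split chosen after seeing the data it was 0.85 relative to the 5 factors. Relative to the 3 inner root sheath keratins it was 1.65, and the breeds did not overlap in either. FOXI3 relative to EDAR was 1.19, 2.07 and 2.83 in the SM and 0.58, 1.77 and 0.73 in the STH sheep, and the breeds overlapped (difference 1.002, exact permutation p = 0.2). EDA2R relative to EDAR was -1.53, -2.36 and -2.98 in the SM and -1.89, 0.19 and -0.14 in the STH sheep. STH sheep XW5 and XW8 therefore held about as much EDA2R as EDAR per exon length, 1.14 and 0.910 times in that order. In the other 4 sheep the ratio was between 0.127 and 0.347 (difference of the breed means -1.68, exact permutation p = 0.2, adjusted p = 0.45). EDAR relative to EDA was -1.83 ± 0.75 in the SM and -1.87 ± 0.65 in the STH sheep (SD, n = 3 each), and EDARADD and TNFRSF19 relative to EDAR differed by 0.29 and -0.067. EDAR relative to the epithelium and follicle markers differed by 0.52 and 0.15, and these 5 ratios had exact permutation p between 0.5 and 0.9.

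**Figure D4:**
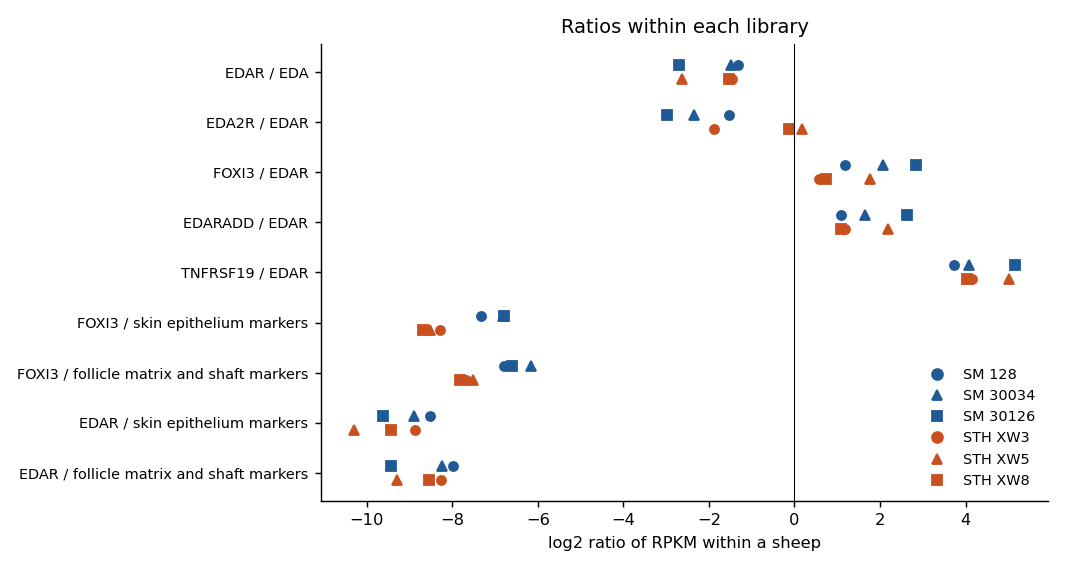
Log2 ratio of RPKM within each library for 9 pairs, with SM sheep in blue and STH sheep in orange. FOXI3 relative to the epithelium and to the follicle markers separates the breeds, by 1.52 and 1.15, and the other 7 ratios overlap.

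Genes with profiles most like those of FOXI3, EDA and EDAR were named by the root-mean-square difference of centred log2 CPM over the 6 sheep, among 12598 genes with a symbol and a mean of at least 1 CPM. This likeness is a description, without a test. Among the 5 closest to FOXI3 were NNAT, with a difference of 0.218 log2 units, HHIPL1 (0.230), TRIB3 (0.236) and KIF9 (0.243). NNAT had 18.4, 34.8 and 28.7 CPM in the SM and 7.715, 11.75 and 9.56 CPM in the STH sheep. These 4 were higher in every SM sheep than in any STH sheep, which their choice by likeness to FOXI3 favours. EDAR was closest to HOXB9, a homeobox gene, with a difference of 0.117, followed by C12H1orf186 (0.137) and INSC (0.142). HOXB9 had 2.97, 3.10 and 2.04 CPM in the SM and 3.18, 1.35 and 2.78 CPM in the STH sheep, with SM sheep 30126 and STH sheep XW5 low in each gene. EDA was closest to SNX19 (0.0280), GMPR2 (0.0325) and SPTAN1 (0.0333).

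The signal from the receptors to NF-kB passes through ubiquitin ligases and kinases. Of the 17 genes listed for this step, all were tested, 0 passed the thresholds in either direction in edgeR's quasi-likelihood test, and 4 were higher in STH (10.8% of all genes) and 0 in SM sheep (7.21%) at an unadjusted p under 0.05. In 5 every STH value exceeded every SM value (13.3% of all genes), and in 0 the reverse held (12.3%). These shares over all genes are the ones to set beside the counts of the lists that follow. The median log2 fold change was -0.15, and it was -0.29 without STH sheep XW3, -0.093 without XW5, -0.092 without XW8 and -0.048 without SM sheep 30126. BIRC3, a ubiquitin ligase recruited to receptors by TRAF proteins, had 47.0, 35.0 and 25.0 CPM in the SM and 58.8, 83.4 and 64.4 CPM in the STH sheep. Its log2 fold change was -0.95 ± 0.24 (SE, adjusted p = 0.234), and it was the 1 gene of the list that passed in the likelihood ratio test (adjusted p = 0.0231) and DESeq2 (adjusted p = 0.0198), where 1.43% and 1.85% of all genes passed with higher values in STH sheep. BIRC2, its close relative, had a log2 fold change of -0.63 ± 0.21 (SE), and TAB2, an adaptor of the kinase TAK1, one of -0.55 ± 0.16 (SE), both with all STH sheep above all SM sheep. The gene of TAK1, MAP3K7, had -0.70 ± 0.24 (SE) and completes the 4, named for that count after its value was seen. For BIRC3, BIRC2, TAB2 and MAP3K7, SM sheep 30126 was lowest and 128 highest within the breed. The same held for TRAF1, TRAF5, TAB3, CHUK and CYLD but not for the rest of the list. That order of the SM sheep is also the one of EDAR, EDA2R and TRAF3. It is that of the intronic shares of these sheep as well, whose part here was not tested. UBE2N and UBE2V1, which form the ubiquitin-conjugating pair used by TRAF6 and were the most abundant of the list at 36.8 and 24.7 RPKM, had log2 fold changes of -0.054 and -0.033.

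The 10 genes of NF-kB subunits and inhibitors were all tested, 0 passed in either direction, and their median log2 fold change was 0.20, with 0.095 and 0.12 without SM sheep 30034 and STH sheep XW5 and 0.31 without SM sheep 128. At an unadjusted p under 0.05, 1 was higher in SM sheep, NFKBIB, an inhibitor of NF-kB, with 18.0, 19.9 and 24.6 CPM in the SM and 13.2, 13.5 and 16.4 CPM in the STH sheep (log2 fold change 0.54, adjusted p = 0.247). NFKBIA, an inhibitor that NF-kB itself induces, did not overlap between the breeds either, with 56.7, 62.2 and 65.0 CPM in SM and 48.1, 54.2 and 50.1 CPM in STH sheep and a fold change of 0.27 on the log2 scale (adjusted p = 0.302). RELA, an activating subunit, had a log2 fold change of 0.25 and REL one of -0.58, and the breeds overlapped in each.

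Among 13 genes known as targets of the pathway in developing skin, 11 had enough counts for a test, 0 passed in either direction and the median log2 fold change was 0.33. FGF20, a placode signal, had 0 counts in all 6 sheep, and DKK4, a WNT inhibitor of the placode, had 8 counts in SM sheep 128, or 0.264 CPM, and 0 in the other 5 sheep, which allows up to 0.0672 to 0.101 CPM in them. At an unadjusted p under 0.05, 2 were higher in SM and 0 in STH sheep. CX3CL1, a chemokine, had 54.0, 61.2 and 64.4 CPM in the SM and 48.7, 43.7 and 44.9 CPM in the STH sheep, with a log2 fold change of 0.39 ± 0.14 (SE, adjusted p = 0.252). CCN2, a matrix protein listed in the files as CTGF, had 111, 173 and 129 CPM in SM and 114, 75.1 and 102 CPM in STH sheep, and its log2 fold change was 0.51 ± 0.21 (SE, adjusted p = 0.270), with overlap. CCL20 had a larger difference at a low level, 0.91 ± 0.46 (SE), and CCND1, the most abundant at 40.0 RPKM, had -0.15. The list median depended on single sheep and was -0.017 without SM sheep 30034.

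The 18 placode and hair germ genes were all tested and 0 passed in either direction, and their median log2 fold change was 0.14 (0.038 without SM sheep 30126 and 0.067 without STH sheep XW5), with 2 genes at an unadjusted p under 0.05 in each direction. DLX3, a homeobox factor of the hair matrix, had 489, 463 and 706 CPM in the SM and 437, 313 and 382 CPM in the STH sheep, and its log2 fold change was 0.55 ± 0.21 (SE, adjusted p = 0.256). PTCH1, the receptor of hedgehog signals and the second of the 2, had 0.33 and was named for that count after its value was seen. LGR5, a marker of cycling follicle stem cells, had 137, 125 and 104 CPM in SM and 149.8, 196 and 157 CPM in STH sheep, and its log2 fold change was -0.46 ± 0.17 (SE, adjusted p = 0.256). TRPS1, a zinc finger factor, had a log2 fold change of -0.63 ± 0.23 (SE) with overlap. KRT17, the most abundant of the list at 1067 RPKM, had -0.18.

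Of the other tumour necrosis factor receptors, 19 of 21 were found and 18 tested, and their median log2 fold change was 0.18. At an unadjusted p under 0.05 the 1 gene was TNFRSF11B, a secreted decoy receptor also called osteoprotegerin, with 0.496, 0.797 and 0.051 CPM in the SM and 0.908, 5.26 and 4.83 CPM in the STH sheep. Its log2 fold change of -3.02 ± 0.87 (SE, adjusted p = 0.247) rests on 15, 36 and 2 counts in the SM sheep, and it passed in the likelihood ratio test (adjusted p = 0.0375) and DESeq2 (adjusted p = 0.0115). STH sheep XW3 lay near the SM sheep and apart from XW5 and XW8, as it did for EDA2R. TNFRSF1A, the most abundant at 43.8 RPKM, had 0.28 and did not overlap between breeds. FAS, a death receptor, had a log2 fold change of -0.58 and TNFRSF12A, the second most abundant, 0.11, both with overlap. Of 17 ligands, 16 were found and 13 tested, with a median log2 fold change of 0.11, which ranged from -0.36 without SM sheep 30034 to 0.30 without SM sheep 128 and was also below 0 without SM sheep 30126, STH sheep XW3 or XW8. TNFSF13, with 3.27, 1.33 and 1.60 CPM in SM and 3.27, 4.24 and 4.20 CPM in STH sheep, was the 1 at an unadjusted p under 0.05 (log2 fold change -0.93, adjusted p = 0.270). Among other ligands named by level or p, FASLG had -1.39, TNFSF15 -0.75, TNFSF10 -0.36 and TNFSF12 0.33. In these lists also 0 passed in either direction.

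Of 14 forkhead genes of skin other than FOXI3, 12 were found and 11 tested, 0 passed in either direction, and the median log2 fold change was 0.16. At an unadjusted p under 0.05, 4 were higher in SM (7.21% of all genes) and 0 in STH sheep, and in 4 the SM sheep all exceeded the STH sheep (12.3% of all genes). FOXN1, the hair keratin regulator altered in nude mice and, like DLX3, also one of the follicle markers, had 588, 561 and 786 CPM in the SM and 512, 274 and 427 CPM in the STH sheep, and its log2 fold change was 0.67 ± 0.24 (SE, adjusted p = 0.256). FOXM1, a factor of dividing cells, had 0.60 ± 0.19 (SE) and FOXC1 0.39 ± 0.16 (SE), the latter named for the count after its value was seen. FOXJ1, a factor of ciliated cells, had the largest difference, 1.75 ± 0.56 (SE, adjusted p = 0.247), but overlapped, with 3.87, 1.20 and 6.52 CPM in SM and 1.07, 1.21 and 1.16 CPM in STH sheep. FOXO3, the second in level at 21.1 RPKM, had 0.16. FOXI1, the relative of FOXI3, did not reach the count minimum, with 0.264, 0.443 and 0.917 CPM in SM and 0.162, 0.095 and 0.099 CPM in STH sheep.

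**Figure D5:**
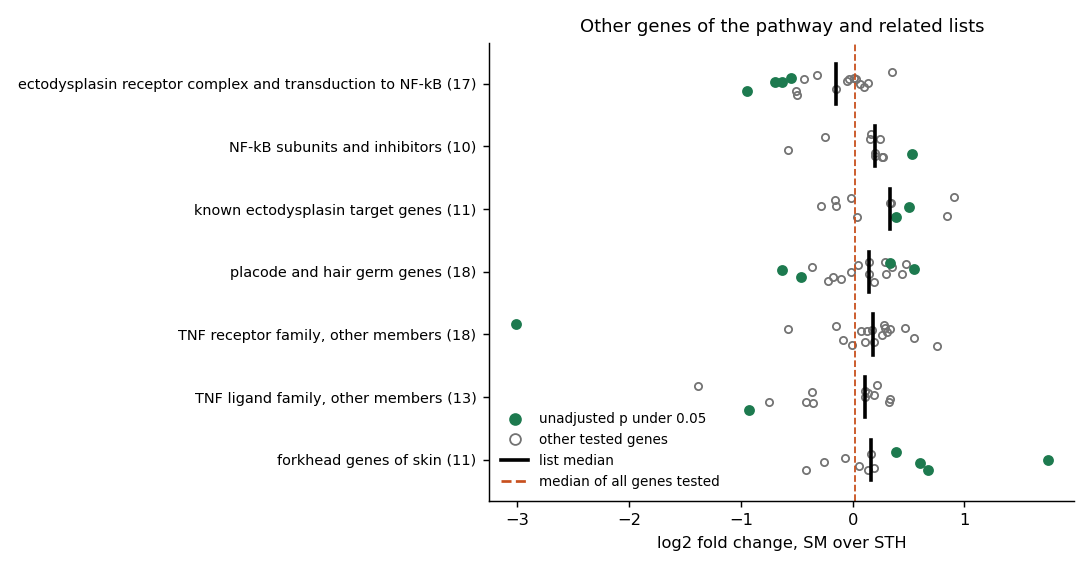
Log2 fold change of SM over STH sheep for each tested gene of the 7 lists, with list medians in black and the number of tested genes in brackets. Filled green points have an unadjusted p under 0.05, and the dashed line is the median of all genes tested, 0.018.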

How the data were processed

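Total counts and RPKM of 6 skin libraries were used. The authors checked reads with FastQC and mapped them to Oar_v4.0 in CLC Genomics Workbench 9.0.1 with default parameters, and the deposited count of a gene is a whole number without normalization. The study's mapping statistics divide fragments into exonic, intronic, intergenic and non-specific ones, but which of these enter a gene's count, and whether by strand, is not given in the sources used here. The RPKM deposited by the authors is proportional, for each gene with counts, to its count within a library, and 4291 genes have an RPKM but no count. The deposited TPM (RPKM rescaled to a common sum) and the deposited score called CPM were not used. The labels give 9 months of age, and the methods of the study a younger one.

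Counts were filtered (at least 10 in at least 3 sheep), normalized by TMM and tested with breed as the only term by glmQLFTest of edgeR 4.0.16 in R 4.3.3, with Benjamini-Hochberg adjustment over 15320 genes. Standard errors are the log2 fold change over the square root of F, and confidence intervals (95%) use the total degrees of freedom of the fit. DESeq2 1.42.0, the likelihood ratio test and limma 3.58.1 were alternatives, with other filters, scalings, removal of a length trend (loess, span 0.5) and each sheep left out. In simulated counts for this comparison, over 15139 genes with 200 changed, the quasi-likelihood test recovered 183 with 7 false calls, and the likelihood ratio test recovered 192 with 34. DESeq2 recovered 192 with 40 false calls among 13962 genes. Every planted change was larger than the log2 fold change of any member, and none was in a gene of very low level. The draws also held no sheep that stood apart as SM sheep 128 did. These counts therefore do not give the recovery or error for the members in the real data. The members and gene lists were chosen with earlier results of these data known. In each list, genes past both thresholds, the 2 highest in RPKM and the 3 with the smallest unadjusted p were named, together with the closest profiles, of which 1 gene is not reported here. List genes were matched by name or, through RefSeq gene identifiers, by symbol. Chromosome numbers follow those identifiers, and coordinates are those of the files.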

Additional observations from a re-analysis of the deposited data

How the results depend on the processing

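No paired analysis was possible because the labels number individual sheep and pair none of one breed with the other. The number of genes past both thresholds, 0 in the main test, was 439 with DESeq2, 352 with the likelihood ratio test, 8 with the length trend removed, 2 without the count filter, 11 with limma on log2(RPKM + 0.1), a count chosen after seeing the data, and 0 to 1175 as each sheep was left out, the highest without SM sheep 128. FOXI3 was 1.345 with DESeq2 and 1.348 with the likelihood ratio test, where it passed, and from 1.22 to 1.55 as each sheep was left out. It kept its direction in every setting run. In the quasi-likelihood test FOXI3 did not pass with RLE (adjusted p = 0.163) or upper quartile scaling (0.147). Nor did it pass there without the count filter (0.118), with a CPM filter (0.1785) or with the length trend removed (0.0951). It also did not pass in limma-voom (adjusted p = 0.185) or in limma on log2(RPKM + 0.1) (adjusted p = 0.142). TRAF3 changed sign to 0.018 with the length trend removed. EDAR ranged from -0.006 (without STH sheep XW5) to 0.54 and TRAF6 from -0.033 (without SM sheep 30126) to 0.13 as each sheep was left out. EDAR relative to EDA was -0.011 with 0.1 RPKM added and -0.34 to 0.47 with sheep left out. Ratios to EDAR ranged from -0.13 to 0.64 for EDARADD and from -0.49 to 0.24 for TNFRSF19, and EDAR over follicle markers from -0.15 to 0.59. In the split of the follicle markers chosen after seeing the data, FOXI3 was 0.85 over factors and 1.65 over keratins, and EDAR -0.155 over factors. The list medians with the length trend removed were 0.26 for placode and 0.38 for forkhead genes. As each sheep was left out they ranged from 0.10 to 0.31 for NF-kB genes, 0.038 to 0.19 for placode genes, and -0.36 to 0.30 for ligands. Genes of the 8 with all STH sheep above all SM sheep numbered 0 to 1 as sheep were left out, 1 without SM sheep 128 or STH sheep XW3. Genes at an unadjusted p under 0.05 split, for SM and STH as the higher breed, into 1104 and 1658 with TMM, 1437 and 1402 with upper quartile scaling, and 1590 and 1428 with the length trend removed. The causes of these changes were not tested. EDAR and EDA2R rest on 10 to 80 counts per library, which limits what a difference in them can show.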
